A study of Mus musculus with 2 samples.

Results

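The canonical Wnt target genes are genes whose transcription follows Wnt/β-catenin signaling in many tissues. Those described here were Axin2, Lef1, Tcf7, Nkd1, Sp5, Znrf3, Rnf43, Notum and Dkk1. These 9 genes were taken by name from the 18131 genes of the deposited tables, and all 9 were found. Single-cell RNA-Seq had been performed on tissue of E9.5 mouse embryos that holds the cardiac neural crest, which ran from the otic placode at its midpoint back to the end of somite 4. WT embryos were Prdm6+/+; Wnt1-Cre2; ZsGreen1, and KO embryos were Prdm6f/f; Wnt1-Cre2; ZsGreen1, all on strain C57BL/6. There was 1 library per genotype. Among its subjects, the study examined Wnt1 and Wnt/β-catenin signaling after loss of Prdm6 in neural crest cells. Transcripts of Wnt targets are a common readout of that signaling.

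The Cre transgene and the green reporter were carried by both groups. Wnt1-Cre2 makes Cre in the Wnt1 lineage, that is, the dorsal neural tube and the neural crest. Cells of other lineages, in which this Cre is not made, were captured too, as no sorting is described. The study pooled barcoded samples, and which embryo a cell came from was not used here, so differences between libraries, embryos and genotypes cannot be told apart. No test between genotypes was made for this reason, and no gene is called changed. Intervals below are 95% intervals for counting error only.

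In canonical Wnt signaling, a Wnt ligand binds a Frizzled receptor and an LRP co-receptor at the cell surface, which keeps a cytoplasmic destruction complex from breaking down β-catenin. β-catenin then enters the nucleus, binds TCF/LEF proteins on DNA and turns on target genes. Many of these targets feed back on the pathway, so the list holds brakes as well as effectors. At this stage the signal acts in the dorsal neural tube, where Wnt ligands are made and neural crest cells arise, and also in somites and in mesenchyme.

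TCF/LEF proteins bind a short core, searched here as CTTTGAA, the form CTTTGAT, the form CTTTGTA and the form CTTTGTT on either strand in the 250 bases before each RefSeq start site (GRCm38.p6). A core was present in 14.8% of all 32851 such windows. Windows were found for 7 of the 9 genes, 12 in all since some genes have several start sites, and 3 of the 12 held a core. Sp5 had 2 cores, at 222 and 104 bases before the start. Dkk1 had 2, at 117 and 98 bases before the start, and Lef1 had 1, before 1 of its 4 start sites. By the GENCODE annotation these windows are not all upstream of the gene. The 169 bases of the Dkk1 window nearest the start, with its 2 cores, lie inside Dkk1. All 250 bases of the Lef1 window with the core lie inside Lef1. The windows of Nkd1 and Rnf43 and 1 of those of Tcf7 also lie wholly inside their genes. The windows of Axin2, Nkd1, Tcf7 and Rnf43 held none, which says only that these letters are not in these windows. The windows of Axin2, the target most used as a readout, and of Sp5, which held 2 cores, are shown to set a window without a core beside one with cores. They lie at chr11:108920099-108920348 and chr2:70474673-70474922, both on the plus strand, and cores are in capitals:
Axin2: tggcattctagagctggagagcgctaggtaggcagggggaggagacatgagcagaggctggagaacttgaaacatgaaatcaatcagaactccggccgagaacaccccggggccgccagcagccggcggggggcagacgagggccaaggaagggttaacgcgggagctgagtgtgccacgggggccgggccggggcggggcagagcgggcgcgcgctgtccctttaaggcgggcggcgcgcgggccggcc
Sp5: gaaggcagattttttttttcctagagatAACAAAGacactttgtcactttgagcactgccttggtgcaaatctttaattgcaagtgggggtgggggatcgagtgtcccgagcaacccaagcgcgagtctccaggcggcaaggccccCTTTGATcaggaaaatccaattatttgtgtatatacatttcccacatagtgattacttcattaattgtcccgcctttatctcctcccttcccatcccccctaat

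The WT library had 11958 cells with a median of 1597 UMIs (unique molecular identifiers, each standing for 1 captured transcript), and the KO library had 9765 cells with a median of 1703. They shared 26 cell barcodes, 0.217% of WT and 0.266% of KO barcodes. Prdm6 itself, the targeted gene, stood at 5.00 UMIs per 1000000 UMIs (CPM) in WT and 3.12 in KO, although 3′ reads cannot separate intact from deleted alleles. Cells were gated into classes by marker genes that included no Wnt target and no Wnt ligand: a cell took the class of which it had most distinct markers, with at least 2 and no tie. Such a class, written X-like, is a range of a marker count and not a proven cell type. In all, 10 classes and 3 subdivisions of the neural tube-like class had at least 50 cells in both libraries, and 4898 WT and 3929 KO cells stayed ungated. All markers of these classes found in the files were detected in both libraries. From 5.88% (12 of 204, KO erythroid-like) to 76.3% (87 of 114, KO sclerotome and somite-like) of the cells of a class had just 2 markers.

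Transcripts that belong to other cell types (free RNA) were found in every class. Globin transcripts made up 16.3% of UMIs in WT and 16.9% in KO erythroid-like cells, and 0.437% and 0.156% in endothelial-like cells. Over all cells they made up 1.40% in WT and 0.724% in KO, where erythroid-like cells were 4.48% and 2.09% of cells, so this background differed between the libraries, and its part in the ratios below was not tested. Sarcomere markers reached cells of other classes as well: the median number of distinct cardiac muscle markers was 1 in all 9 other classes of both libraries. The cardiac muscle-like class held 21.6% of WT and 25.4% of KO cells, and when markers were discounted for free RNA only 942 WT and 782 KO cells remained in it. Erythroid-like cells are used here to show the background level of each gene. Their median depth was 2031 UMIs in WT and 2453 in KO.

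Over all cells, none of the 9 genes, of which Rnf43 and Notum had fewer than 100 UMIs, differed by 1.5-fold or more between the libraries. Such a difference was seen in 0.613% of the 11744 genes with at least 100 UMIs toward higher levels in KO and in 2.75% toward lower levels. Some intervals excluded 0, but they hold counting error only, and the share of all genes with such intervals was not computed. The pathway gene Ctnnb1, for example, had such an interval at a log2 ratio of 0.04 (0.01 to 0.07). The intervals of Axin2 and Lef1 spanned 0 when scaled to library totals but not under TMM scaling, which sets the trimmed mean of gene ratios to no difference. Tcf7 was higher in KO, and Nkd1, Sp5 and Znrf3 were lower in KO. The 90% of genes in the middle of the distribution had log2 ratios of KO over WT between −0.48 and 0.31, around a median of −0.06.

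**Figure D1:**
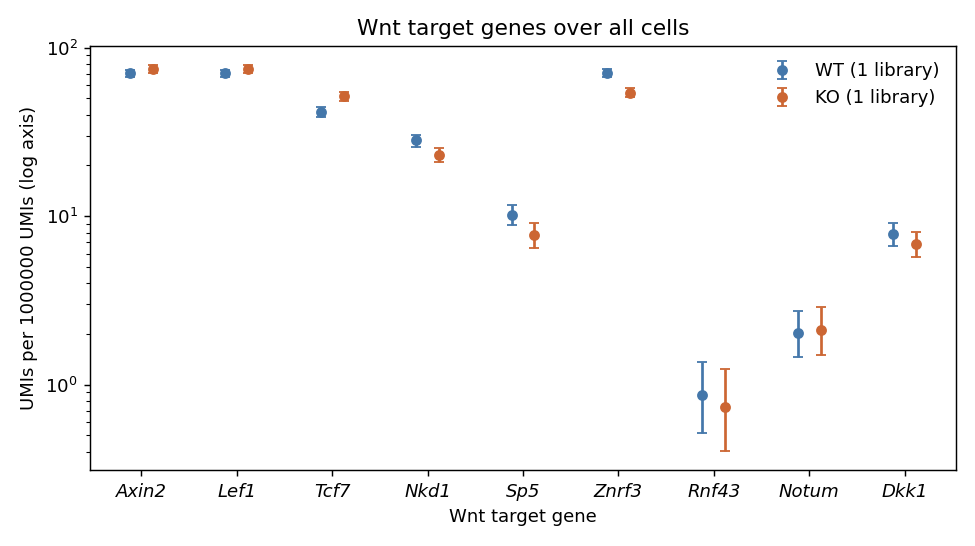
Level of each Wnt target gene over all cells in the WT (blue) and KO (orange) library, in UMIs per 1000000 UMIs on a log axis, with exact Poisson intervals of 95% for counting error only. The intervals of the libraries do not overlap for Tcf7, Nkd1 and Znrf3, and Rnf43 and Notum lie at 2.11 CPM or less.

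Axin2 encodes a scaffold of the destruction complex and is the most widely used readout of canonical Wnt signaling (ENSMUSG00000000142, chromosome 11, 108920349 to 108950783, plus strand, GRCm38). In WT, 1463 Axin2 UMIs were counted (70.4 CPM, 66.8 to 74.1), and in KO 1415 (74.7 CPM, 70.9 to 78.7). Its log2 ratio, KO over WT here and below, was 0.09 (−0.02 to 0.19), and 0.15 (0.04 to 0.25) under TMM scaling, so whether the interval spanned 0 depended on the scaling. Cells with an Axin2 UMI made up 10.7% of WT and 12.4% of KO cells, but 6.75% and 6.61% once each cell was thinned to 1000 UMIs. Among erythroid-like cells the thinned share was 3.07% in WT and 1.49% in KO.

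The interval of Axin2 lay above that of erythroid-like cells in 5 of 9 other classes in WT and in 7 in KO. Among the 10 classes of at least 50 cells, it was highest in WT in head mesenchyme-like cells (120.0 CPM, interval 102 to 139.9), followed by neural tube-like (91.0), migrating neural crest-like (88.0) and neuron-like cells (72.7). In KO, migrating neural crest-like cells (106 CPM, 80.3 to 138) and head mesenchyme-like cells (103 CPM, 86.3 to 123) came first, and the intervals of these leading classes overlapped each other in each library. Outside erythroid-like cells, the lowest levels were in endothelial-like cells, at 30.3 CPM in WT and 31.5 in KO, and these could not be told from the erythroid-like levels of 30.1 and 23.3. Within the neural tube-like class, Axin2 was higher dorsally than ventrally. The dorsal cells had 125 CPM in WT and 129 in KO, and the ventral cells had 49.0 and 47.3. The log2 ratio of dorsal over ventral was 1.35 (0.51 to 2.29) in WT and 1.45 (0.60 to 2.41) in KO, so the difference was found in each library separately. The order of the 10 classes was alike in WT and KO, with a Spearman correlation of 0.90 that is given as a description, since classes of 1 library share its free RNA.

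Between genotypes, the Axin2 interval spanned 0 in every class when scaled to library totals. In cardiac muscle-like cells the interval lay above 0 under TMM scaling (0.28, 0.03 to 0.52), and with 3 markers required (0.38, 0.06 to 0.71). Its UMIs in neural tube-like cells numbered 195 in WT and 199 in KO, or 91.0 and 90.3 CPM, with a log2 ratio of −0.01 (−0.30 to 0.28) that was above 0 under TMM scaling. In the dorsal subdivision, where the Wnt1 lineage arises, the log2 ratio was 0.05 (−0.42 to 0.52). In migrating neural crest-like cells it was 0.27 (−0.29 to 0.83). Roof plate and pre-EMT-like cells, where EMT is the epithelial–mesenchymal transition, were named only from their gating markers Lmx1a, Msx1, Msx2 and Snai2. Wnt1, known from premigratory neural crest, goes against the name, with 22.6 CPM in WT and 18.6 in KO there beside 81.5 and 72.8 in dorsal neural tube-like cells. They had only 17 Axin2 UMIs in 105 WT cells and 12 in 84 KO cells. Their log2 ratio of −0.37 (−1.57 to 0.78) leaves room for a difference of over 1.5-fold in either direction. The largest ratio, 0.65 (−0.33 to 1.68), was in floor plate-like cells, from 15 UMIs in WT and 25 in KO.

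Nkd1 (naked cuticle 1) encodes a cytoplasmic brake that acts on Dishevelled (ENSMUSG00000031661, chromosome 8, 88521354 to 88594884, plus strand). WT held 585 Nkd1 UMIs (28.2 CPM, 25.9 to 30.5) and KO 439 (23.2 CPM, 21.1 to 25.5). Its log2 ratio was −0.28 (−0.46 to −0.10), and 16.2% of genes had a lower one. The share of cells with a UMI was 4.67% in WT and 4.21% in KO, and after thinning 2.60% and 2.40%, beside 0.958% and 0.990% among erythroid-like cells, and the intervals of the shares over all cells overlapped.

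The Nkd1 ratios ran from −0.64 to 0.54 over 6 groups of cells with at least 30 UMIs. In neural tube-like cells the level was 23.3 CPM in WT (50 UMIs) and 15.0 in KO (33 UMIs), a log2 ratio of −0.64 (−1.32 to 0.02). In head mesenchyme-like cells it was 48.6 CPM in WT and 33.4 in KO, a log2 ratio of −0.54 (−1.14 to 0.04). Of these 6 groups, only ungated cells, at −0.35 (−0.64 to −0.05), had an interval that excluded 0, and under TMM scaling it did not (−0.58 to 0.01). In cardiac muscle-like cells the levels were 25.5 and 25.8 CPM. With markers discounted for free RNA they were 18.6 CPM in WT (35 UMIs) and 12.2 in KO (20 UMIs), a log2 ratio of −0.61 (−1.48 to 0.22). With 3 markers required, all 5 groups with at least 30 UMIs had Nkd1 lower in KO, cardiac muscle-like cells by −0.09. For floor plate-like cells, 15 UMIs in 175 WT cells and 2 in 157 KO cells gave a log2 ratio of −2.99 (−6.16 to −0.89) on few counts. The 9 and 2 UMIs of roof plate and pre-EMT-like cells gave −2.04 (−5.29 to 0.23). In splanchnic mesoderm-like cells the direction was opposite, with 24.0 CPM in WT and 35.0 in KO and a log2 ratio of 0.54 (−0.45 to 1.52). The order of classes was little alike between libraries for Nkd1, with a Spearman correlation of 0.14.

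Lef1 and Tcf7 encode DNA-binding partners of β-catenin, so these targets are also effectors of the pathway. Lef1 lies on chromosome 3 (131110471 to 131224356, plus strand, ENSMUSG00000027985) and Tcf7 on chromosome 11 (52252371 to 52283014, minus strand, ENSMUSG00000000782). The 3′ end of Tcf7 lies within the annotated lincRNA Gm26551 on the same strand, so its UMIs may hold transcripts of that gene. Antisense genes also overlap Axin2, Lef1, Tcf7 and Notum, and as no strand of counting is stated, their reads cannot be told apart. Lef1 UMIs numbered 1465 in WT (70.5 CPM, 66.9 to 74.2) and 1413 in KO (74.6 CPM, 70.8 to 78.6), and its log2 ratio was 0.08 (−0.02 to 0.19), or 0.14 (0.03 to 0.25) under TMM scaling. For Tcf7, the WT library gave 863 UMIs (41.5 CPM, 38.8 to 44.4) and the KO library 975 (51.5 CPM, 48.3 to 54.8), with a log2 ratio of 0.31 (0.18 to 0.44). This was the highest ratio among the 9 genes and above that of 94.96% of all genes, at a fold of 1.24. Shares of cells with a UMI were 11.01% and 12.4% for Lef1 and 6.82% and 8.96% for Tcf7. Thinned, they were 6.66% and 6.63% for Lef1 and 4.12% and 4.69% for Tcf7, and the Tcf7 shares had overlapping intervals (3.75% to 4.52% in WT, 4.28% to 5.13% in KO). Among erythroid-like cells the thinned shares were 2.68% and 3.47% for Lef1 and 3.26% and 2.97% for Tcf7.

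Lef1 lay above its erythroid-like interval in 8 of 9 other classes in WT and in 7 in KO. Among the 10 classes, migrating neural crest-like cells led in both libraries, at 108 CPM in WT (84.4 to 137) and 98.7 in KO (73.7 to 129), with sclerotome and somite-like (108 and 85.2) and head mesenchyme-like cells (89.8 and 87.2) at levels that overlapped theirs. Lef1 was also present in endothelial-like cells, at 72.3 CPM in WT and 75.7 in KO. The log2 ratio of endothelial-like over erythroid-like cells was 1.49 (0.88 to 2.15) in WT and 1.38 (0.58 to 2.28) in KO, where that of Axin2 was 0.01 (−0.69 to 0.72) in WT and 0.43 (−0.54 to 1.51) in KO. The intervals of the 2 genes were apart in WT and overlapped in KO. The lowest Lef1 levels outside erythroid-like cells were in neuron-like cells in WT (46.3 CPM) and in floor plate-like (51.0) and neuron-like cells (52.3) in KO. Lef1 did not differ between genotypes beyond counting error in any of 12 groups of cells with at least 30 UMIs. Other settings gave exceptions, namely an interval above 0 in ungated cells under TMM scaling (0.21, 0.03 to 0.38), one below 0 in floor plate-like cells gated after thinning (−1.47, −2.85 to −0.25), and one above 0 in pharyngeal mesoderm-like cells with markers discounted for free RNA. Without these settings its log2 ratios ran from −0.52 in floor plate-like cells to 0.48 in splanchnic mesoderm-like cells, with 6 above and 6 below 0.

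Tcf7 lay above its erythroid-like interval in 4 of 9 other classes in each library, 2 of them shared. Among the 10 classes it was highest in WT at 77.4 CPM in sclerotome and somite-like cells and 66.0 in migrating neural crest-like cells, and in KO at 75.8 in head mesenchyme-like and 58.8 in migrating neural crest-like cells. Neuron-like cells had the lowest level of these classes in both libraries, 13.2 CPM in WT and 17.4 in KO, below neural tube-like cells by a log2 ratio of −1.63 (−3.54 to −0.23) in WT and −1.45 (−2.93 to −0.28) in KO. Among groups with at least 30 UMIs, the ratio was highest in head mesenchyme-like cells, with 71 UMIs (52.3 CPM) in WT, 93 (75.8 CPM) in KO and a log2 ratio of 0.54 (0.07 to 1.00). The ratio was 0.37 (0.08 to 0.67) in cardiac muscle-like cells and 0.36 (0.14 to 0.57) in ungated cells, and in these 3 of 10 groups with at least 30 UMIs the interval excluded 0, while 5 of the 10 ratios were above 0. With markers discounted for free RNA, the ratio was 0.47 (−0.11 to 1.04) in cardiac muscle-like and 0.39 (−0.02 to 0.80) in head mesenchyme-like cells, and gating after thinning gave 0.17 (−0.42 to 0.76) in the latter, so only that of ungated cells kept its interval above 0 under both. The discount also brought pharyngeal mesoderm-like cells to at least 50 in both libraries, 56 in WT and 96 in KO, from 37 and 61. There Tcf7 stood at 34.9 CPM in WT (4 UMIs) and 164 in KO (37 UMIs), a log2 ratio of 2.23 (0.76 to 4.18), and Lef1 at 87.2 CPM (10 UMIs) and 248 CPM (56 UMIs), a log2 ratio of 1.51 (0.53 to 2.65). These were the largest ratios of any target with at least 30 UMIs under any setting, on few WT counts, and 46 of the 56 WT and 75 of the 96 KO cells had just 2 markers. In this group 10.8% of all genes were higher in KO by 1.5-fold or more. In neural tube-like cells the Tcf7 ratio was 0.22 (−0.21 to 0.64), and in migrating neural crest-like cells −0.17 (−0.88 to 0.54). Roof plate and pre-EMT-like cells had 10 Tcf7 UMIs in WT and 14 in KO, and 10 and 17 Lef1 UMIs, with intervals that spanned 0 for both genes.

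Sp5 encodes a zinc finger transcription factor that is a direct β-catenin target in early embryos (ENSMUSG00000075304, chromosome 2, 70474923 to 70477729, plus strand), and its promoter window with 2 cores is printed above. Transcripts were scarce. Counts were 212 UMIs in WT (10.2 CPM, 8.87 to 11.7) and 146 in KO (7.71 CPM, 6.51 to 9.07). The log2 ratio was −0.40 (−0.72 to −0.09), and 7.44% of genes had a lower ratio. Cells with a UMI made up 0.991% of WT (0.811% to 1.20%) and 0.685% of KO cells (0.530% to 0.870%) after thinning, and 1.67% and 1.43% before it. Among erythroid-like cells, 1 of 522 in WT and 0 of 202 in KO had a UMI after thinning.

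Sp5 was lower in KO in all 4 groups of cells with at least 30 UMIs, and in 2 of 3 with 3 markers required. In neural tube-like cells, 35 UMIs in WT (16.3 CPM, 11.4 to 22.7) and 19 in KO (8.63 CPM, 5.19 to 13.5) gave a log2 ratio of −0.92 (−1.81 to −0.08). This became −0.50 (−1.43 to 0.41) without the 5% of cells with most UMIs. Within the neural tube-like class, the dorsal cells had the highest Sp5 level in WT, 26.0 CPM from 15 UMIs, and 10.6 CPM from 7 UMIs in KO, with a log2 ratio of −1.29 (−2.83 to 0.09). In head mesenchyme-like cells 21 and 10 UMIs gave a log2 ratio of −0.92 (−2.17 to 0.23), and 0.067 (−1.63 to 1.72) when cells were gated after thinning to 1000 UMIs, from 8 and 7 UMIs. The 3 groups that kept at least 30 Sp5 UMIs under that gate were all lower in KO, by −1.23 to −0.20. In cardiac muscle-like cells the ratio was −0.17 (−0.88 to 0.53), which was 0.0047 with 3 markers required. From 6 UMIs in WT and 8 in KO, migrating neural crest-like cells had a log2 ratio of 0.69 (−1.03 to 2.49).

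**Figure D2:**
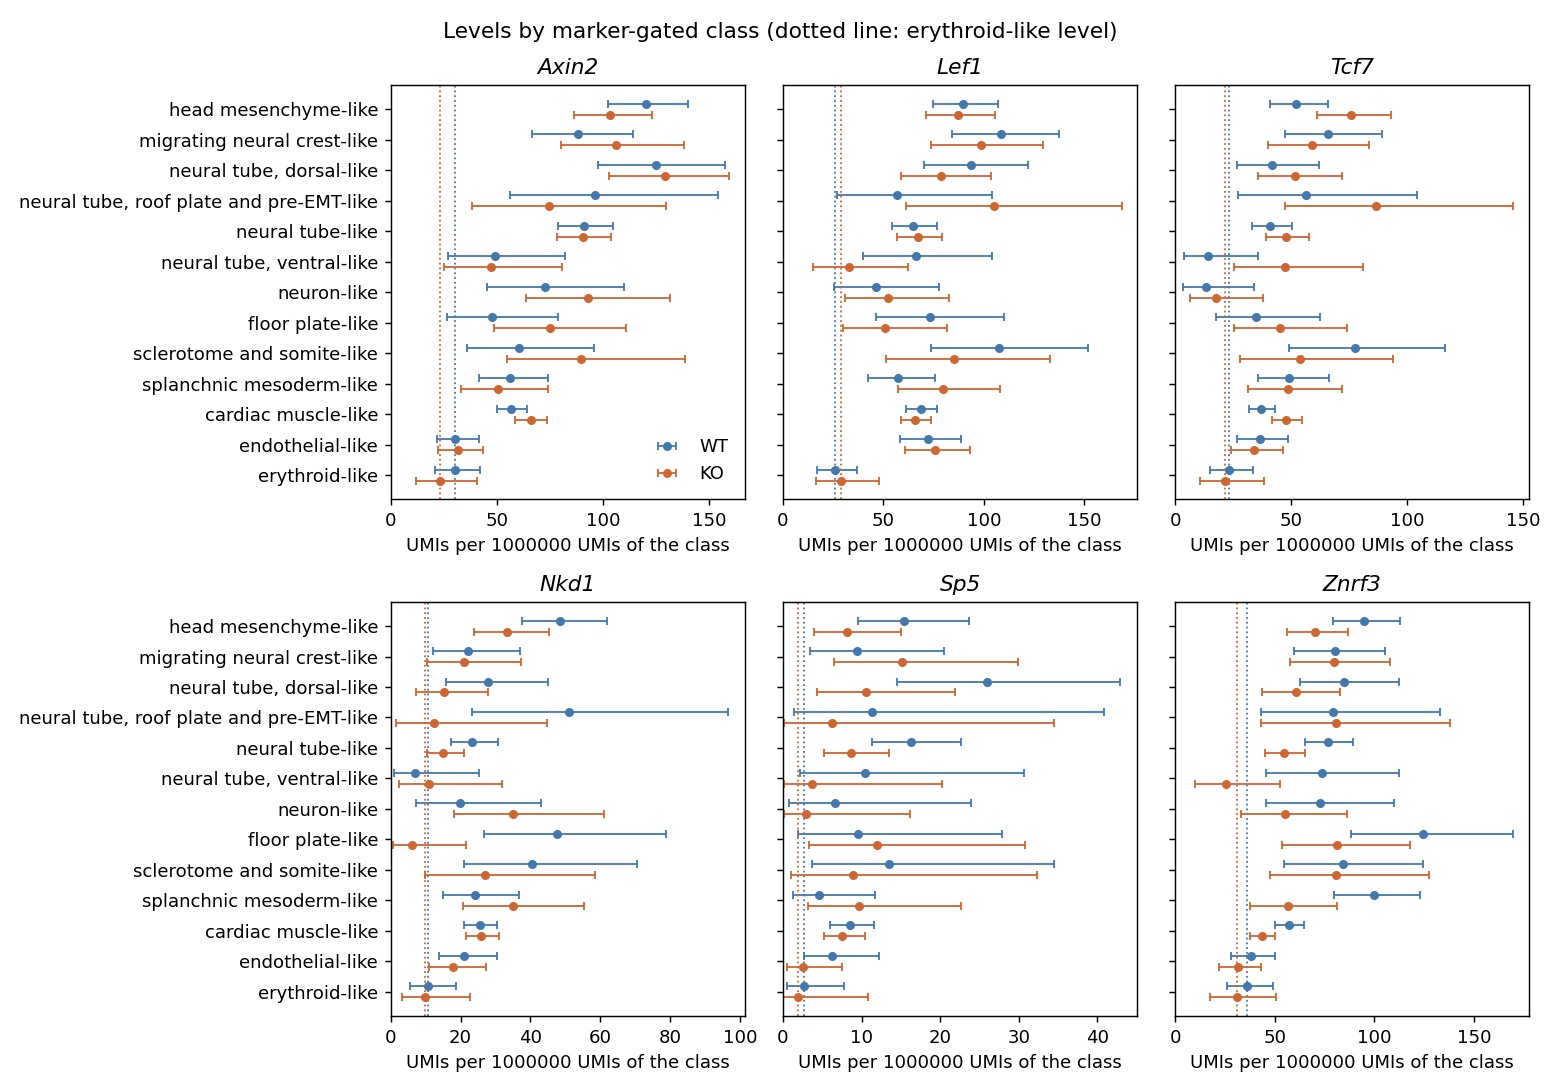
Level of 6 Wnt target genes in 10 marker-gated classes and 3 subdivisions of the neural tube-like class, in UMIs per 1000000 UMIs of the class, in WT (blue) and KO (orange) with exact Poisson intervals of 95%. Dotted lines mark the erythroid-like level of each library. Axin2 falls from 125 CPM in dorsal to 49.0 CPM in ventral neural tube-like cells in WT, and Lef1 lies above its erythroid-like level in endothelial-like cells.

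Znrf3 and Rnf43 encode membrane ubiquitin ligases that remove Frizzled receptors from the cell surface and thereby dampen the signal, unless R-spondins hold them back. Znrf3 lies on chromosome 11 (5276324 to 5444847, minus strand, ENSMUSG00000041961), as does Rnf43 (87662722 to 87735539, plus strand, ENSMUSG00000034177). In WT 1474 Znrf3 UMIs were found (70.9 CPM, 67.4 to 74.6), against 1022 in KO (54.0 CPM, 50.7 to 57.4). The log2 ratio was −0.39 (−0.51 to −0.28), a fold of 1.31, and 7.97% of genes had a lower ratio. The thinned share of cells was 6.46% in WT (6.00% to 6.95%) and 4.51% in KO (4.11% to 4.95%), with intervals that did not overlap, and 10.9% and 9.01% before thinning. Among erythroid-like cells it was 2.68% and 3.96%. Rnf43 was barely detected, with 18 UMIs in WT and 14 in KO, each in a different cell, and was at 0 in both libraries in endothelial-like, migrating neural crest-like, floor plate-like, neuron-like and sclerotome and somite-like cells. In migrating neural crest-like cells a count of 0, taken to allow 3 counts, allows up to 4.71 CPM in WT and 5.69 in KO.

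Znrf3 was lower in KO in 12 of 12 groups of cells with at least 30 UMIs, but in 11 of 12 under TMM scaling, in 10 of 12 without the 5% of cells with most UMIs, in 10 of 11 with 3 markers required and in 12 of 13 with markers discounted for free RNA. The groups were the 10 classes, the dorsal neural tube-like subdivision, itself part of the neural tube-like class, and the ungated cells. They are parts of the same 2 libraries, so they are not independent repeats of the difference over all cells. The share of all genes that were lower in every group was not computed. Among these 12 groups, splanchnic mesoderm-like cells had the largest difference. They had 87 UMIs in WT (99.6 CPM, 79.8 to 123) and 29 in KO (56.4 CPM, 37.8 to 81.1), a log2 ratio of −0.82 (−1.48 to −0.20). Neural tube-like cells had 76.5 CPM in WT and 54.5 in KO, a log2 ratio of −0.49 (−0.84 to −0.14). Head mesenchyme-like cells had 94.99 and 70.1 CPM, a log2 ratio of −0.44 (−0.85 to −0.03), or −0.38 (−0.79 to 0.03) under TMM scaling. Together with cardiac muscle-like cells (−0.39, −0.67 to −0.12) and ungated cells (−0.39, −0.58 to −0.20), these were the 5 groups whose interval excluded 0. Other settings left 4 of 12 such groups (TMM scaling), 2 of 11 (3 markers required), 3 of 11 (gating after thinning), 5 of 12 (without the 5% of cells with most UMIs) and 7 of 13 (markers discounted for free RNA).

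Scaled to library totals, the smallest Znrf3 difference of a class was in migrating neural crest-like cells. They are named by markers of the lineage that Wnt1-Cre2 targets, and deletion of Prdm6 in them was not measured. Their 51 UMIs in WT and 42 in KO, or 80.1 and 79.7 CPM, gave a log2 ratio of −0.01 (−0.63 to 0.61), which was 0.05 under TMM scaling. Roof plate and pre-EMT-like cells had 14 and 13 UMIs and a log2 ratio of 0.02 (−1.18 to 1.22). These intervals are wide and include the ratio over all cells, so a smaller difference in these cells than elsewhere is not shown. In the ventral neural tube-like cells, on the other hand, 21 UMIs in WT and 7 in KO gave a log2 ratio of −1.53 (−3.01 to −0.24). The Znrf3 interval lay above that of erythroid-like cells in 7 of 9 other classes in WT and in 3 in KO. Among the 10 classes of at least 50 cells, Znrf3 was highest in floor plate-like cells, at 124 CPM in WT (88.3 to 169.7) and 81.1 in KO (53.4 to 118), with intervals that overlapped those of splanchnic mesoderm-like, head mesenchyme-like and migrating neural crest-like cells. Outside erythroid-like cells (36.3 and 31.0 CPM) it was lowest in endothelial-like cells (38.1 and 31.5). Surface ectoderm-like cells were too few for comparison between genotypes but had higher Znrf3 levels than these, with 12 UMIs in 17 WT cells (329 CPM, 169.9 to 574) and 17 UMIs in 19 KO cells (316 CPM, 184 to 507). Of these cells, 14 in WT and 14 in KO had just 2 markers.

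Notum and Dkk1 encode secreted inhibitors. Notum is a carboxylesterase that strips the lipid from Wnt ligands, and Dkk1 (Dickkopf 1) binds the LRP co-receptors. Notum lies on chromosome 11 (120653788 to 120661175, minus strand, ENSMUSG00000042988), where its 3′ end overlaps the antisense gene Myadml2os, and Dkk1 on chromosome 19 (30545863 to 30549665, minus strand, ENSMUSG00000024868). Notum counts were 42 UMIs in WT and 40 in KO, 2.02 and 2.11 CPM, with a log2 ratio of 0.06 (−0.60 to 0.72), and no class had 30 Notum UMIs apart from the ungated cells (17 and 19). Dkk1 reached 162 UMIs in WT (7.80 CPM, 6.64 to 9.09) and 129 in KO (6.81 CPM, 5.69 to 8.09), a log2 ratio of −0.19 (−0.54 to 0.15). Among the 10 classes, Dkk1 was highest in splanchnic mesoderm-like cells of both libraries, at 21.8 CPM in WT (13.1 to 34.0) and 19.5 in KO (9.33 to 35.8). In WT these cells exceeded head mesenchyme-like cells by a log2 ratio of 1.56 (0.39 to 2.83), and in KO by 0.88 (−0.47 to 2.18). Neural tube-like cells gave 15 Dkk1 UMIs in WT and 6 in KO, a log2 ratio of −1.36 (−3.01 to 0.09), and 5 and 0 in migrating neural crest-like cells, where a count of 0 allows up to 5.69 CPM.

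**Figure D3:**
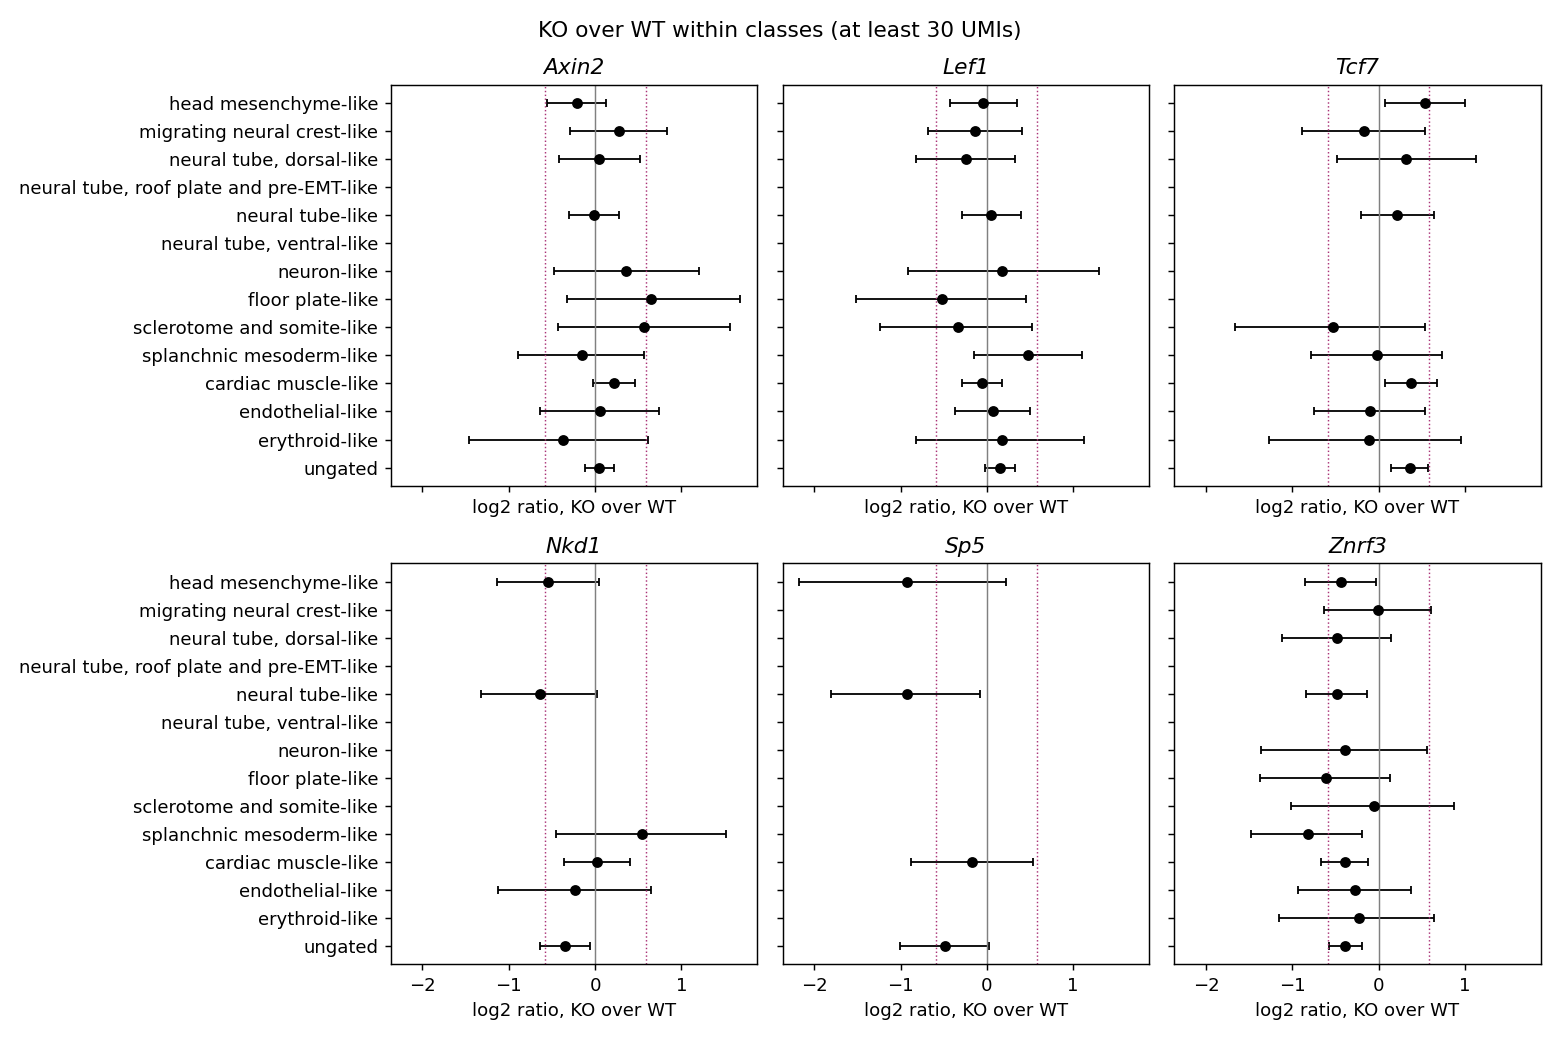
Log2 ratio of KO over WT for 6 Wnt target genes within classes, with exact conditional intervals of 95%, where both libraries together had at least 30 UMIs. Dotted lines mark 1.5-fold. All 12 Znrf3 points lie below 0 (1 or 2 groups lay above it under 4 of 5 alternatives), whereas the Axin2 and Lef1 points lie on both sides and their intervals, scaled to library totals, include 0.

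By class, 6 of 51 pairs of a target and a gated group of cells with at least 30 UMIs differed by 1.5-fold or more, where the dorsal neural tube-like cells count beside the class that holds them. None of the 8 pairs in ungated cells did, where 1.56% of genes were higher and 5.52% lower in KO. Neural tube-like cells had Sp5 and Nkd1 lower in KO by this measure, as were 6.77% of their genes, while 2.22% were higher. Head mesenchyme-like cells had Sp5 lower, as were 6.13% of genes, and 4.37% were higher. Splanchnic mesoderm-like cells had Znrf3 lower, as were 9.13%, and 5.14% were higher. Floor plate-like cells had Axin2 higher, as were 7.95% of genes, and Znrf3 lower, as were 8.04%.

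No target with at least 30 UMIs passed 1.5-fold in the other groups of cells. There, genes higher and lower in KO made up 2.04% and 7.24% in cardiac muscle-like, 3.79% and 7.11% in endothelial-like and 4.6% and 11.8% in erythroid-like cells. They made up 5.72% and 7.56% in migrating neural crest-like, 8.0% and 7.9% in neuron-like and 8.6% and 10.8% in sclerotome and somite-like cells. In the dorsal neural tube-like cells they were 4.8% and 8.42%. No target reached 30 UMIs in roof plate and pre-EMT-like cells (8.79% and 9.41% of genes) or in ventral neural tube-like cells (8.22% and 9.66%). With TMM scaling, 7 pairs were past 1.5-fold, 4 higher and 3 lower in KO in place of 1 higher and 5 lower. That scaling raises the ratio of every gene by the same amount, and the share of all genes past 1.5-fold under it was not computed. The median log2 ratio of the targets with at least 30 UMIs, 3 to 8 of them per group, ran from −0.52 in floor plate-like to 0.18 in neuron-like cells. It was −0.33 in head mesenchyme-like, −0.25 in neural tube-like, −0.02 in splanchnic mesoderm-like and 0.02 in cardiac muscle-like cells, beside medians between −0.07 and 0.01 over all genes of these groups.

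UMIs of several targets in the same cell were counted after thinning to 1000 UMIs, when 75.1% of WT and 76.7% of KO cells had a UMI of none of the 9 genes and 2.99% and 2.75% had UMIs of 2. Cells of all classes were pooled, and both Axin2 and Nkd1 stood above their erythroid-like level in some classes. An Nkd1 UMI was present in 4.34% (2.97% to 6.10%) of WT cells with an Axin2 UMI and in 2.47% (2.17% to 2.80%) of those without, and in KO in 4.87% (3.33% to 6.84%) and 2.22% (1.93% to 2.55%). This was the only pair with separate intervals in both libraries. Within the 10 classes and the ungated cells taken one by one, the share was higher in cells with an Axin2 UMI in 7 of 11 groups in WT and in 6 of 11 in KO, with at most 6 cells holding both in a class and 12 (WT) and 15 (KO) among ungated cells. In WT alone the intervals were apart for Lef1 with Sp5 (2.41% of cells with a Lef1 UMI and 0.890% of the others), Nkd1 with Sp5 (2.91% and 0.940%) and Axin2 with Znrf3 (9.51% and 6.24%). In KO alone they were apart for Lef1 with Tcf7 (8.29% and 4.43%). For Sp5 with Znrf3, on 8 cells, they were apart in KO only when cells were split by Sp5 and not when split by Znrf3. The difference of these pairs between libraries was not tested, and cells of 1 library are not replicates.

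**Figure D4:**
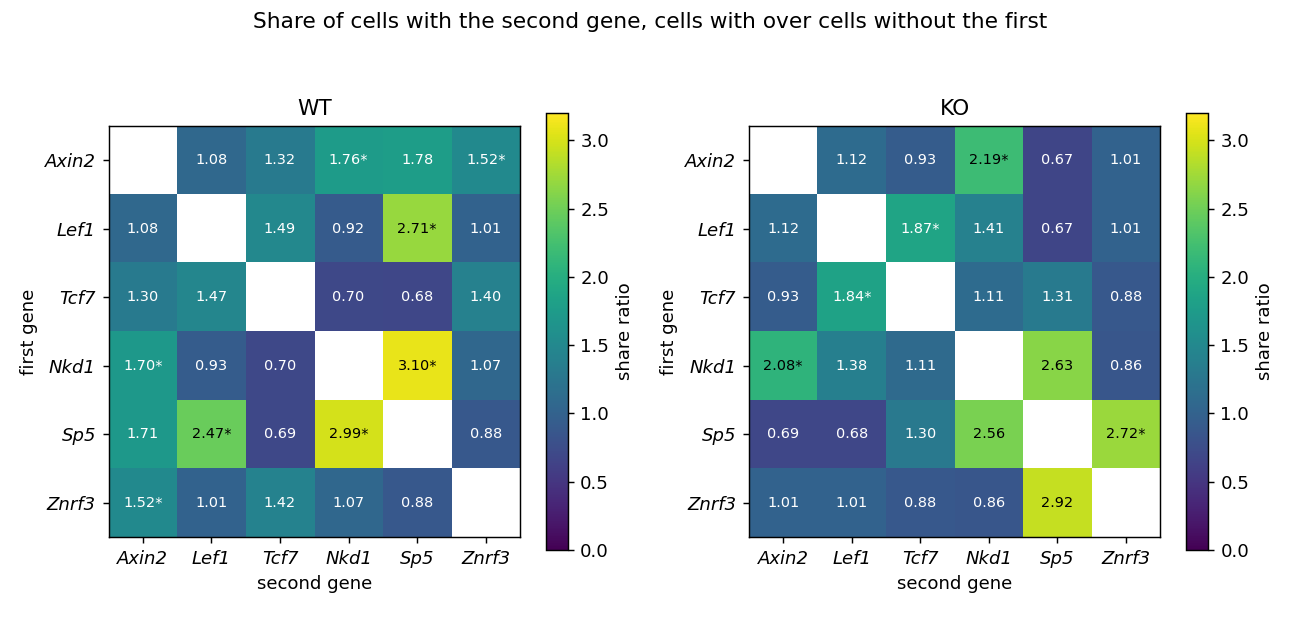
Ratio of the share of cells with a UMI of the second gene (columns) among cells with over cells without a UMI of the first gene (rows), at 1000 UMIs per cell, in WT and KO. Stars mark pairs whose exact binomial intervals do not overlap, and Axin2 with Nkd1 is starred in both libraries (1.76 in WT and 2.19 in KO).

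Across the 10 classes, the genes whose levels were most like those of a target were ranked in WT by Pearson correlation of log2(CPM + 10), among 10404 genes with at least 200 UMIs that were no class marker. The correlation in KO is a second look at the same classes. For the leading genes below, it exceeded that of 26.7% (Bcl2l11, for Nkd1) to 99.6% (Nr2f1, for Axin2) of the 10404 genes. For Zfp74 and Helz with Lef1 this share was 82.4% and 84.2%. For Axin2 the leading genes were Ccni (0.94 in WT, 0.79 in KO), A830082K12Rik (0.93 and 0.75) and the orphan nuclear receptor gene Nr2f1 (0.91 and 0.89). For Lef1 they were the DNA methyltransferase gene Dnmt3b (0.96 and 0.83), Zfp74 (0.96 and 0.58) and Helz (0.96 and 0.60). For Znrf3 they were Pdcd4 (0.96 and 0.83), Epm2aip1 (0.94 and 0.42) and Zadh2 (0.94 and 0.52). The genes leading for Sp5 in WT, Nova1, Sart3 and Gas2, had correlations of 0.00098, 0.36 and 0.092 in KO, and those leading for Nkd1, Siah1b, Itih5 and Bcl2l11, had 0.45, 0.092 and −0.13. For Tcf7 they were Gltp (0.96 and 0.096), Cad (0.96 and 0.63) and Traf7 (0.95 and 0.55), and for Dkk1 Pbx3 (0.92 and 0.17), Fndc4 (0.91 and 0.41) and the collagen gene Col1a2 (0.91 and 0.24). Among the targets themselves, correlations in WT and KO were 0.80 and 0.76 for Lef1 with Tcf7, and 0.76 and 0.15 for Nkd1 with Znrf3. The difference of the latter was not tested, and Nkd1 had only 2 UMIs in KO floor plate-like cells.

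The rest of the pathway was described from a list of 77 genes, of which 72 were in the files and 56 had at least 100 UMIs. Of these 56, 0 were higher and 5 were lower in KO by 1.5-fold or more, beside 0.613% and 2.75% of all genes with at least 100 UMIs, and 19 had a log2 ratio above and 37 below 0, with a median of −0.12 beside −0.06 over all genes. The 5 were the secreted antagonist Sfrp5 (18.9 CPM in WT and 7.45 in KO, log2 ratio −1.34, −1.63 to −1.06), the Dickkopf gene Dkk2 (−1.04, −1.57 to −0.53), the receptor gene Fzd5 (−0.94, −1.40 to −0.50), and the target genes Bambi (65.3 and 37.3 CPM, −0.81, −0.94 to −0.68) and Myc (39.2 and 25.7 CPM, −0.61, −0.77 to −0.45). Sfrp5 binds Wnt ligands, Dkk2 binds the LRP co-receptors and Fzd5 transmits the signal, whereas Bambi is a pseudoreceptor that inhibits signaling by BMPs and TGF-β. Median log2 ratios were −0.15 for the ligands, −0.16 for R-spondins and their receptors, −0.15 for receptors, −0.06 for the destruction complex and cytoplasmic components, −0.03 for nuclear partners, −0.17 for inhibitors and 0.10 for other targets.

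**Figure D5:**
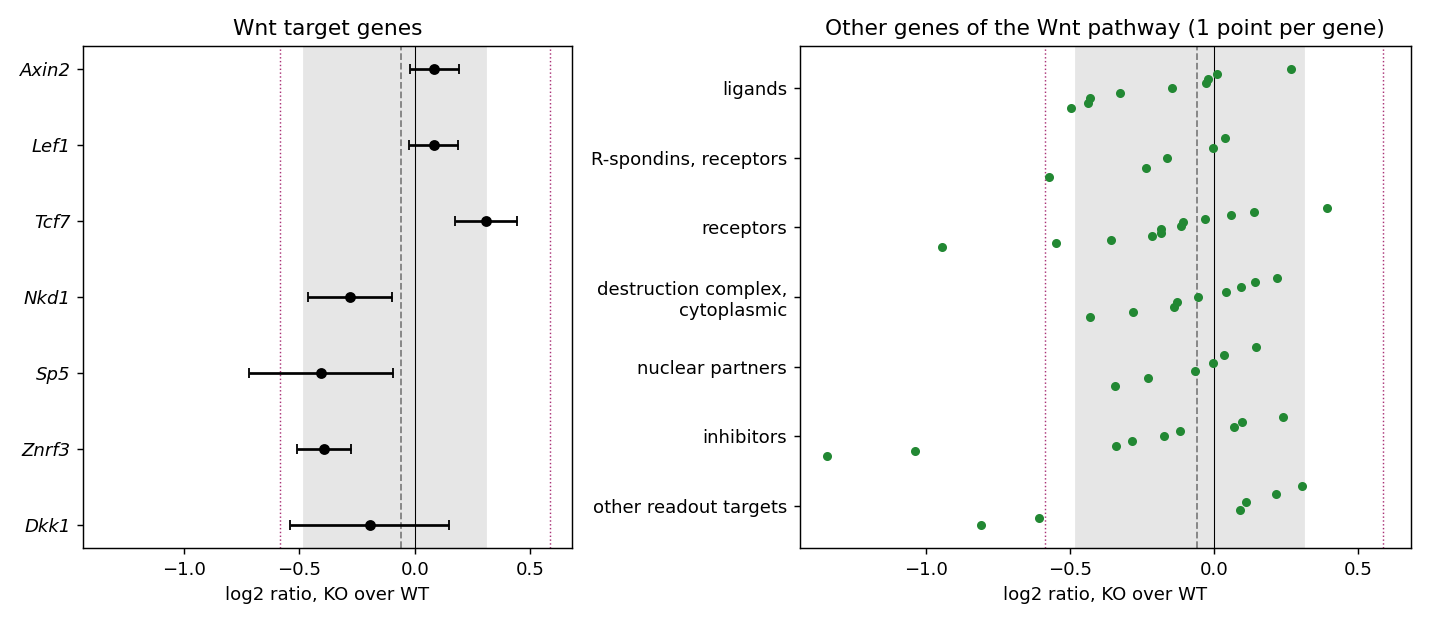
Log2 ratio of KO over WT over all cells for the 7 Wnt target genes with at least 100 UMIs, with exact conditional intervals of 95% (left), and for 56 other genes of the pathway by role (right). The grey band holds the middle 90% of genes, the dashed line is their median and dotted lines mark 1.5-fold. Tcf7 lies at the upper edge of the band, Znrf3 and Sp5 lie near its lower edge, and 5 pathway genes lie left of the 1.5-fold line.

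The ligand with most UMIs was Wnt5a in every class but the dorsal neural tube-like cells, where it was Wnt1. Wnt1, which is made by the cells that give rise to neural crest, was present there at 81.5 CPM (47 UMIs, WT) and 72.8 CPM (48 UMIs, KO), a log2 ratio of −0.16 (−0.77 to 0.45), beside the Axin2 ratio of 0.05 in the same cells. In roof plate and pre-EMT-like cells it had only 4 and 3 UMIs (22.6 and 18.6 CPM). Wnt5a, a ligand known mainly for signaling without β-catenin, stood at 124 CPM (168 UMIs, WT) and 176 CPM (216 UMIs, KO) in head mesenchyme-like cells, a log2 ratio of 0.51 (0.21 to 0.81). Among the 12 groups with at least 30 Znrf3 UMIs, Znrf3 differed most in splanchnic mesoderm-like cells. There, the 5 pathway genes with the largest ratios were Sfrp5 (−1.62, −2.60 to −0.75), Bambi (−0.83, −1.39 to −0.30), the receptor genes Fzd4 (0.52, −0.14 to 1.18) and Fzd3 (0.44, 0.02 to 0.85), and Bcl9l (−0.44, −1.11 to 0.20). The summed level of all ligands was described against the level of each target over the 10 classes. Spearman correlations in WT and KO were 0.28 and 0.13 for Axin2, 0.14 and 0.48 for Lef1, 0.41 and 0.70 for Tcf7, 0.78 and 0.47 for Nkd1, 0.30 and 0.32 for Sp5, and 0.64 and 0.31 for Znrf3. For the scarce targets they were 0.48 and 0.50 for Rnf43, 0.40 and 0.83 for Notum, and 0.60 and 0.67 for Dkk1. Head mesenchyme-like and splanchnic mesoderm-like cells, for example, had summed ligand levels of 212 and 235 CPM in WT, whereas Axin2 stood at 120.0 and 56.1 CPM in them.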

How the data were processed

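Droplet libraries of WT and KO embryos, 1 per genotype, were sequenced from the 3′ end. Per the labels and methods, the authors counted UMIs with Cell Ranger 1.3.1, with a mouse build in the labels and a human genome joined with the reporter in the methods, filtered cells, genes and doublets, took out mitochondrial and ribosomal UMIs, scaled each cell to its total and took square roots in Scanpy. The deposited values are such scores, not counts. Their squares summed to 1641 in each cell, and dividing them by the smallest nonzero square of the cell gave whole numbers within 0.01 for 100% of nonzero values. These recovered UMIs were used throughout. Because the deposited unit is not a count, no count model was fitted.

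Each level divides a gene's UMIs by all UMIs of its library or class (CPM) and has an exact Poisson interval. Log2 ratios have exact conditional intervals and shares exact binomial (Clopper-Pearson) intervals, all at 95% and for counting error only. A count of 0 was read as allowing 3 counts. No ratio was called by a test, and 1.5-fold serves as a description, for genes with at least 100 UMIs over all cells or 30 in a class. Thinning drew 1000 UMIs per cell without replacement and dropped the shallower cells, 1361 of WT and 125 of KO. The gate used 141 markers of 17 classes and 4 neural tube subdivisions, with 4 further markers absent from the columns. Doublets were not called again. Positions are from GENCODE vM21 (GRCm38), in which all 9 symbols were found, and promoters from RefSeq.

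All 9 targets are named. Of other pathway genes, the 5 with the largest absolute ratio per comparison and the ligand with most UMIs are named, and for each target with at least 200 UMIs the 3 genes most like it over classes. The members and lists were chosen with earlier results of these data known. The functions were tested on simulated counts. Alternatives were TMM and median of ratios scaling, a mean over cells, leaving out the 5% of cells with most UMIs, no UMI minimum, 3 markers in place of 2, and gating after thinning. A discount of free RNA (a marker counted only at 3 times its expected UMIs or more) and leaving out erythroid and cardiac muscle-like cells were added after seeing the data. Python 3.11.15, numpy 2.4.6, scipy 1.17.1 and pandas 2.3.3 were used.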

Additional observations from a re-analysis of the deposited data

How the results depend on the processing

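Over all cells, the count of targets past 1.5-fold stayed at 0 and the ratios of all 7 targets with at least 100 UMIs kept their direction under TMM and median of ratios scaling, a mean over cells, and without the 5% of cells with most UMIs or the erythroid and cardiac muscle-like cells. TMM and median of ratios scaling subtracted −0.06 and −0.07 from every log2 ratio, and the intervals of Axin2 and Lef1 then lay above 0. Within classes, a gate discounted for free RNA raised the number of pairs past 1.5-fold from 6 to 13, with 61 in place of 51 pairs tested. Of the 13, 4 were higher and 9 lower in KO, and 2.28% to 10.8% of all genes of a group were higher and 5.23% to 12.6% lower. Sp5 in head mesenchyme-like cells moved from −0.92 to 0.067 when cells were gated after thinning, from fewer than 30 UMIs, and the cause was not tested. All 3 groups with at least 30 Sp5 UMIs there were lower. Of 55 to 59 pairs, ungated cells included, 4 to 12 changed direction under an alternative, 0 of them pairs whose interval had excluded 0. Znrf3 was lower in 11 of 12 groups under TMM scaling, in 10 of 12 without the deepest cells, in 10 of 11 with 3 markers and in 12 of 13 with the discount. Without a UMI minimum, 12 in place of 5 other pathway genes were past 1.5-fold, of 72 in place of 56, while 18.2% of all genes were. The share of cells with a UMI was higher in KO for 5 of 9 targets before thinning and for 3 after it. No paired analysis was possible because there is 1 library per genotype and no result comes from a test. Depth limits Rnf43, Notum and all targets in roof plate and pre-EMT-like cells, where none reached 30 UMIs.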
